A study of Homo sapiens with 18 samples.

Results

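The RNA of extracellular vesicles (EVs) from ATG12-/- cells was compared with that of EVs from ATG7-/- cells, 3 libraries against 3. These 6 libraries were chosen by their labelled genotype and source from the 18 of the study, and no wild-type library entered the comparison. The cells were HEK293T, an established human embryonic kidney line that grows as a transformed culture, and both knockouts had been without serum for 24 h before EVs were collected. The labels give 1 clone for each knockout, so the gene lost and the clone cannot be told apart. Each library is labelled as a biological replicate, with no word on what was kept separate, so p-values measure only the spread between these libraries. ATG12-/- and ATG7-/- cells, 3 libraries each, were used to set the same difference in the producing cells beside that in EVs.

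ATG7 is the activating enzyme that starts both conjugation reactions of autophagy, the one that joins ATG12 to ATG5 and the one that joins proteins of the LC3 family to membrane lipid. ATG12, once joined to ATG5, forms with ATG16L1 the complex that completes the transfer of LC3 to lipid. Loss of either gene blocks LC3 lipidation, and this machinery has been linked to the loading of RNA-binding proteins and small noncoding RNAs into EVs. The comparison of both knockouts asks in which RNAs their EVs differ from each other.

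Values were TPM, a share of each library corrected for transcript length and summed here per gene. An ATG12-/- EV library had 13255 to 13501 genes at 1 TPM or more and an ATG7-/- EV library 14160 to 14716, ranges that did not overlap. In every one of the 6 libraries the 10 most abundant genes took at least 25.2% of all TPM. Pairs of libraries were compared by Pearson's r of their log2 values over the 14467 genes tested, as a description across genes that share libraries. It was 0.626 to 0.631 within ATG12-/- EVs, 0.709 to 0.729 within ATG7-/- EVs and 0.647 to 0.670 between the groups, so over all genes ATG12-/- libraries were no more alike than an ATG12-/- and an ATG7-/- library. Over the 859 genes averaging 100 TPM or more it was 0.476 to 0.510 within ATG12-/- EVs, 0.528 to 0.606 within ATG7-/- EVs and 0.467 to 0.531 between the groups, ranges that overlapped. Markers of HEK293T cells, 10 genes, summed to 333 to 402 TPM in ATG12-/- EVs and 374 to 491 TPM in ATG7-/- EVs. Erythrocyte and platelet markers, which could come from serum, had 6 of 8 genes listed at 0 in all 3 libraries of each group, and their sums reached 15.1 TPM in ATG12-/- EVs and 11.1 TPM in ATG7-/- EVs, against 3.98 TPM in ATG12-/- cells and 7.08 TPM in ATG7-/- cells. Hepatocyte markers had 3 of 4 at 0 in ATG12-/- EVs and 4 of 4 at 0 in ATG7-/- EVs. Leukocyte markers had 2 of 5 at 0 in each group, and their sums reached 30.0 TPM in ATG12-/- EVs and 4.11 TPM in ATG7-/- EVs. Fibroblast markers had 3 of 4 at 0 in ATG12-/- EVs and 2 of 4 in ATG7-/- EVs, with sums of up to 15.8 TPM in ATG12-/- EVs and 12.8 TPM in ATG7-/- EVs. Their part in the results was not tested.

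The targeted genes were read first. ATG7 had 13.8, 20.8 and 14.1 TPM in ATG12-/- EVs, against 15.6, 13.5 and 11.2 TPM in ATG7-/- EVs, and the groups overlapped (log2 difference 0.22 ± 0.48 SE, adjusted p = 0.949). In cells ATG7 had 14.9, 13.1 and 17.1 TPM in ATG12-/- cells and 8.06, 11.2 and 12.9 TPM in ATG7-/- cells (0.43 ± 0.26, adjusted p = 0.635). ATG12 was listed at 0, 0.858 and 0 TPM in ATG12-/- EVs, against 12.2, 4.65 and 0.326 TPM in ATG7-/- EVs, and was too low in EVs to be tested. In cells ATG12 had 6.71, 9.18 and 5.18 TPM without ATG12 and 11.9, 16.5 and 6.06 TPM without ATG7, with overlap (-0.61 ± 0.41, adjusted p = 0.673). The sums cover all transcripts of a gene, and the sources used here do not say where either gene was edited, so these levels are no check of the labels.

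The RNA of both EV preparations differed in few genes that could be called. Of 14467 genes tested, 5 passed an adjusted p of 0.05, which is 0.0346%: 3 (0.0207%) were higher in ATG12-/- EVs and 2 (0.0138%) were lower. Without adjustment, 1009 genes (6.97%) had p under 0.05. The groups did not overlap in 1851 genes (12.8%), of which 819 (5.66%) were higher and 1032 (7.13%) were lower in ATG12-/- EVs. The median log2 difference, ATG12-/- minus ATG7-/- as everywhere below, was -0.09, with 6591 genes above 0 and 7876 below. The called genes were MT-TA, RF02120, AF106564.1, one gene named RF00019 and one named RF00017, and none of them codes for a protein. All but AF106564.1 were listed at 0 throughout an EV group and passed the filter through the other group alone. Such zeros do not vary, which lowers the spread estimated for these genes, so their adjusted p-values are descriptions. The number rested on the libraries and features fitted: it was 11 without ATG12-/- replicate 1, 10 without ATG12-/- replicate 3 and 4 to 6 without any one of the others. It was 2 without transcripts under 200 bases and 17 when the spread was estimated from 9 EV libraries, wild type included. Without mitochondrially encoded and small noncoding RNA genes it was 1. With the replicate number fitted as a block it was 0, and the labels do not say whether equal numbers pair the libraries.

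**Figure D1:**
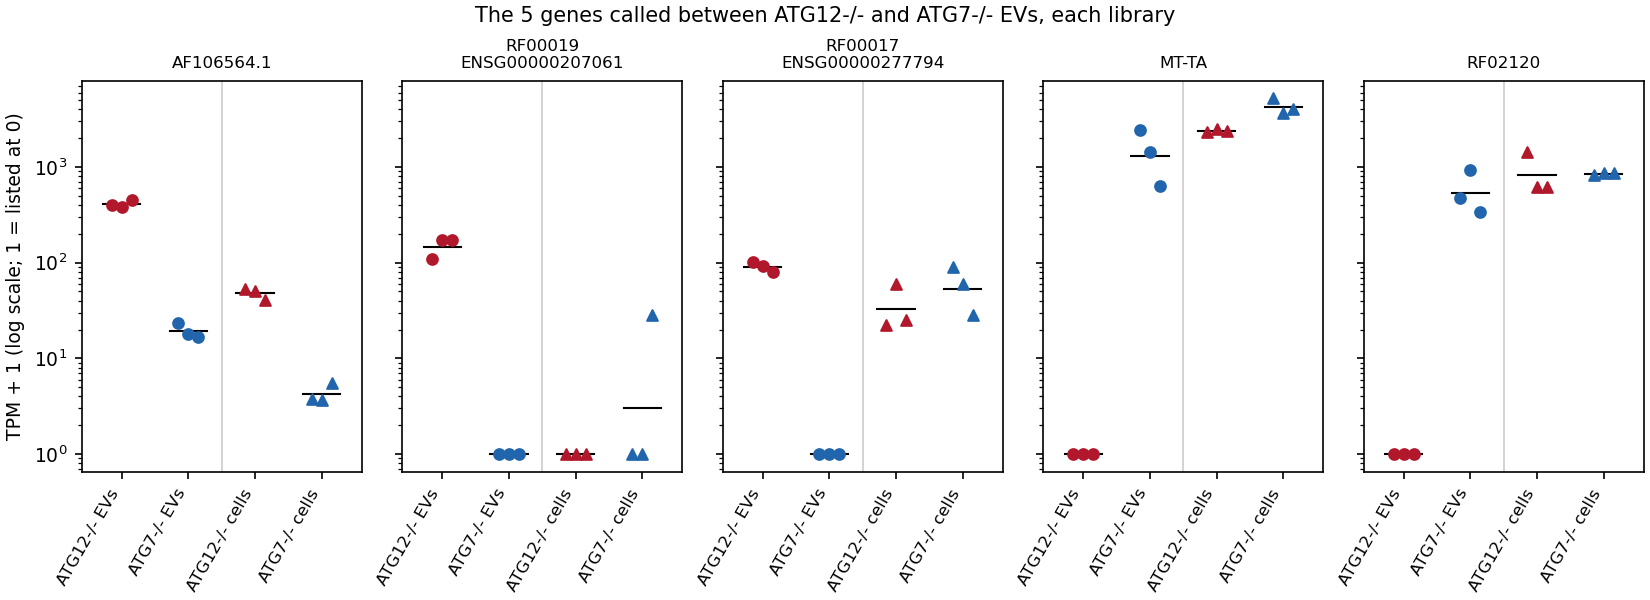
TPM + 1 on a log scale of each called gene in the 3 libraries of ATG12-/- EVs, ATG7-/- EVs, ATG12-/- cells and ATG7-/- cells (circles for EVs, triangles for cells, line for the geometric mean; a point at 1 is listed at 0). In 4 of the 5 genes all 3 libraries of one EV group are listed at 0, while AF106564.1 is above 15 TPM in all 6 EV libraries and keeps its order in cells.

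AF106564.1 was the one called gene with a value in every EV library. It is a 2553-base antisense RNA gene on the minus strand (GENCODE 29, GRCh38, chr8:24912165-24914717), and 66.8% of its transcript lies opposite exons of NEFM, the gene of the medium neurofilament chain, a cytoskeletal protein of neurons that HEK293T cells are known to express. It had 403, 384 and 449.9 TPM in ATG12-/- EVs, against 22.5, 17.1 and 15.8 TPM in ATG7-/- EVs, so every ATG12-/- library was far above every ATG7-/- library. The mean was 22.3-fold higher in ATG12-/- EVs (log2 difference 4.39 ± 0.29 SE, 95% interval 3.70 to 5.08, adjusted p = 0.0054). The cells showed the same order, with 51.9, 50.1 and 39.5 TPM in ATG12-/- cells against 2.81, 2.64 and 4.53 TPM in ATG7-/- cells, a 14.2-fold higher mean (3.46 ± 0.27, adjusted p = 0.00951). The EV difference minus the cell difference was 0.97 (adjusted p = 0.705). The EV call held in 14 of 16 alternative settings. It was lost in a limma fit with sample weights and no trend (adjusted p = 0.0558). With the replicate number fitted as a block it was lost too (limma, adjusted p = 0.159). Wild-type EVs, outside the comparison, had 817, 793 and 755 TPM and wild-type cells 38.1, 40.8 and 37.2 TPM. The ATG7-/- libraries were thus the lowest of the 3 genotypes in both sources.

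NEFM itself did not pass the test. It had 34.7, 27.1 and 30.7 TPM in ATG12-/- EVs, against 2.15, 20.6 and 8.52 TPM in ATG7-/- EVs, and the groups did not overlap (1.84 ± 0.76, unadjusted p = 0.0455, adjusted p = 0.701). In cells it had 7.41, 14.5 and 9.58 TPM in ATG12-/- and 0.952, 1.73 and 0.198 TPM in ATG7-/- (2.56 ± 0.42, adjusted p = 0.133). The gene and the RNA gene opposite it thus lay on the same side in EVs and in cells.

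The level of such opposite features bears on how these values can be read. Among 461 genes annotated as antisense, each with at least 50% of its leading transcript opposite a protein-coding gene and averaging 10 TPM or more, 411 (89.2%) were above the gene they lie opposite, with medians of 43.9 TPM for the antisense genes and 10.8 TPM for the genes opposite. The floor of 10 TPM was set on the antisense genes and not on the genes opposite. It favours a high share, so these values are a description. The strand setting used to make the deposited values is not given in the sources used here. Where such a feature overlaps the gene opposite, reads of both therefore cannot be told apart here. In AF106564.1, 1657 of 2504 stretches of 50 bases also occur in NEFM on the opposite strand, and the others occur in no other annotated gene.

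MT-TA, the mitochondrial alanine tRNA, which is transcribed from the minus strand of the mitochondrial genome (chrMT:5587-5655, 69 bases), fell to 0 TPM as listed in all 3 ATG12-/- EV libraries, against 2428, 1447 and 638 TPM in ATG7-/- EVs. The fitted difference was -10.37 (adjusted p = 0.00258), a value that depends on the pseudocount of 1 because one group is at 0, and no fold is given. MT-TA was abundant in the producing cells, with 2344, 2487 and 2369 TPM in ATG12-/- cells and 5203, 3636 and 4053 TPM in ATG7-/- cells (-0.86 ± 0.16, adjusted p = 0.171). Wild-type EVs had 791, 3304 and 3639 TPM. The DNA form of the tRNA is shown because it is the most abundant RNA called, with the anticodon in capitals.
MT-TA: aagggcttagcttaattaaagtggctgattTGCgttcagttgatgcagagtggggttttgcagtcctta

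The zeros of MT-TA stood among many zeros of RNAs of this size. Of the 22 mitochondrial tRNAs, 15 were listed at 0 in at least 1 ATG12-/- EV library and 11 in at least 1 ATG7-/- EV library, while 6 were at 0 in all 3 ATG12-/- EV libraries and 3 in all 3 ATG7-/- EV libraries. In 9 of 22, a library of ATG12-/- EVs was at 0 while another of the same group had at least 100 TPM, and the same held for 6 of 22 in ATG7-/- EVs. MT-TG, the glycine tRNA, had 1237, 0 and 0 TPM in ATG12-/- EVs and 381, 727 and 256 TPM in ATG7-/- EVs. In ATG12-/- cells 3 of 22 and in ATG7-/- cells 2 of 22 were at 0 in any library. An exact 0 in such a table can be a failed estimate, and its part in the call of MT-TA was not tested. The titles name all libraries as large RNA, and how well RNAs of this size were kept in them was not tested.

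The other gene lower in ATG12-/- EVs was RF02120, a 94-base feature on the plus strand (chrX:74280402-74280495) of which 98.9% lies opposite exons of FTX, a long noncoding gene of the X-inactivation centre. It was listed at 0 in all 3 ATG12-/- EV libraries, against 471, 928 and 339.7 TPM in ATG7-/- EVs (-9.07 ± 0.52, adjusted p = 0.00258). In cells it had 1434, 613 and 618 TPM in ATG12-/- and 825, 860.4 and 856 TPM in ATG7-/-, with overlap (-0.09 ± 0.35, adjusted p = 0.95). Wild-type EVs were listed at 0 in all 3 libraries, so that the ATG7-/- EVs were the one EV group with a value. FTX had 316, 302 and 323 TPM in ATG12-/- EVs and 305, 299 and 337 TPM in ATG7-/- EVs, levels that overlapped (-0.02 ± 0.21, 95% interval -0.52 to 0.47). All 45 stretches of 50 bases in RF02120, the length of a read, also occur in FTX on the opposite strand.
RF02120: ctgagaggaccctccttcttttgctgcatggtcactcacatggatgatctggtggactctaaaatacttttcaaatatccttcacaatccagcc

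The gene named RF00019 (ENSG00000207061, minus strand, chr7:156186122-156186223) carries the Rfam number of the Y RNAs, small RNAs that bind the Ro and La proteins. It had 107, 171 and 170.0 TPM in ATG12-/- EVs and was listed at 0 in all 3 ATG7-/- EV libraries (7.19 ± 0.51, adjusted p = 0.00595). Its cells were nearly without it, with 0 TPM in all 3 ATG12-/- libraries and 0, 0 and 27.4 TPM in ATG7-/- cells. It is a near copy of RNY3, a Y RNA gene of the same 102 bases on the plus strand of the same chromosome (chr7:148983755-148983856), and their sequences differ at 6 positions.

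RNY3 and 5 other genes of its family, the copy among them, had the same TPM within 0.1% in each of the 3 ATG12-/- EV libraries: 107, 171 and 170.0. In ATG7-/- EVs these 6 genes differed from each other. RNY3 had 1613, 137 and 514 TPM in ATG7-/- EVs (-1.75 ± 0.79, adjusted p = 0.739), 3 of the others had 0, 137 and 514 TPM, 1 had 0, 0 and 514 TPM, and the copy was at 0 throughout. The sum of the 6 genes was 645, 1029 and 1019.9 TPM in ATG12-/- EVs and 1613, 549 and 2572 TPM in ATG7-/- EVs, and these groups overlapped. All 53 stretches of 50 bases in RNY3 also occur in other annotated genes, while 2 of the 53 in the copy do. How reads were divided among the genes is not known from the table. The call of the copy held in 11 of the 14 alternative settings that tested it, with a highest adjusted p of 0.164 (limma). Among the settings that lost it was the fit without ATG12-/- replicate 2 (adjusted p = 0.0754). Of 732 genes named RF00019, 6 were tested, all 6 lay above 0 (median 3.35) and 1 was called. Members that pass the filter through ATG12-/- EVs alone had to lie above 0. Several of them also share the same values there, so this direction is a description. The TPM summed over the family was 3851, 1472 and 1799 in ATG12-/- EVs and 2741, 1383 and 5642 in ATG7-/- EVs, with overlap.

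The gene named RF00017 (ENSG00000277794, plus strand, chr13:40730981-40731253, 273 bases) carries the Rfam number of the RNA of the signal recognition particle, the complex that brings nascent secretory proteins to the endoplasmic reticulum. It had 101, 92.0 and 78.6 TPM in ATG12-/- EVs and was listed at 0 in all 3 ATG7-/- EV libraries (6.49 ± 0.53, adjusted p = 0.013). In cells it had 21.4, 58.9 and 24.5 TPM in ATG12-/- and 88.5, 59.0 and 27.5 TPM in ATG7-/-, with overlap (-0.76 ± 0.55, adjusted p = 0.695). Wild-type EVs were listed at 0 in all 3 libraries. None of its 50-base stretches occurs in another annotated gene. It lost its call whichever of the 6 libraries was left out, with adjusted p = 0.0524 to 0.10, so it is the least firm of the 5. Of 167 genes named RF00017, 76 were tested, 43 lay above 0, 33 below and 1 was called.

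The functional signal recognition particle RNAs were the most abundant RNAs beside SH3D19. RN7SL1 had 42449, 41000.2 and 36156 TPM in ATG12-/- EVs, against 30944, 30944 and 34926 TPM in ATG7-/- EVs (0.28 ± 0.12, adjusted p = 0.714). RN7SL2 lay on the other side, with 29553, 33391 and 27949 TPM in ATG12-/- EVs and 40205, 41877 and 50399 TPM in ATG7-/- EVs (-0.57 ± 0.13, adjusted p = 0.291). Neither gene's groups overlapped, in opposite directions. All 250 stretches of 50 bases in RN7SL1 occur in other genes, and 217 of 251 in RN7SL2. Their sum was 72002, 74391 and 64105 TPM in ATG12-/- EVs and 71149, 72822 and 85325 TPM in ATG7-/- EVs, which overlapped.

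**Figure D2:**
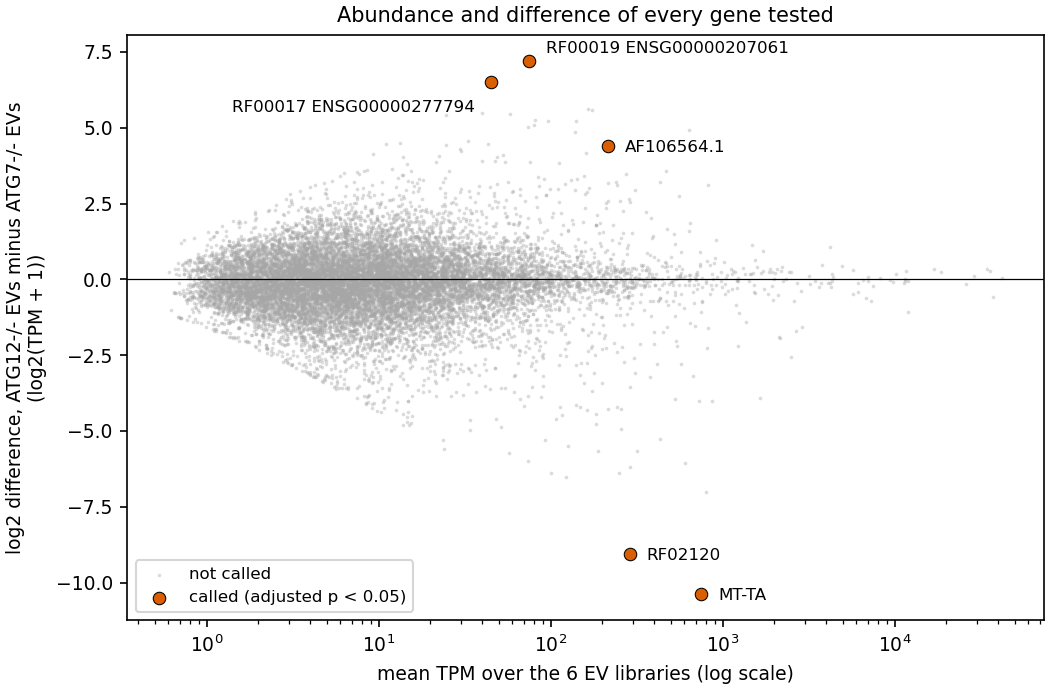
Mean TPM over the 6 EV libraries (log scale) against the log2 difference, ATG12-/- minus ATG7-/- EVs, of the 14467 genes tested, with the 5 called genes in orange. The spread around 0 narrows with abundance, and the called genes lie outside it between 10 and 1000 TPM.

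How small a difference could be seen depended on abundance. The median standard error was 0.79 on the log2 scale for 8197 genes averaging under 10 TPM, 0.70 for 5411 genes at 10 to 100 TPM, 0.39 for 756 genes at 100 to 1000 TPM and 0.19 for 103 genes from 1000 TPM upwards. The 95% interval lay within 1 log2 unit of 0 in 0, 111, 247 and 72 genes of these classes, 430 genes or 2.97% of all. For the remaining genes the interval reached beyond that size. Among the 859 genes averaging 100 TPM or more, 3 were called (0.349%), 100 (11.6%) had an unadjusted p under 0.05 and 148 (17.2%) had groups that did not overlap.

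Several of the most abundant RNAs were close to equal in both knockouts. SH3D19, named for an adaptor protein, had 44528, 40201 and 44114 TPM in ATG12-/- EVs and 44738, 40271 and 38978 TPM in ATG7-/- EVs (0.03 ± 0.08, 95% interval -0.16 to 0.22). Its leading transcript lies 52.1% opposite RPS3A, a small-subunit ribosomal protein gene. LHFPL3-AS2 had 11835, 11848 and 11618 TPM in ATG12-/- EVs and 11954, 12669 and 11604 TPM in ATG7-/- EVs (95% interval -0.30 to 0.17). AC006064.4, which lies opposite the glycolytic gene GAPDH over 100% of its length, had 11739.9, 10883 and 11722 TPM in ATG12-/- EVs and 11877, 11024 and 11816 TPM in ATG7-/- EVs (95% interval -0.27 to 0.18). RN7SK, the RNA that holds the elongation factor P-TEFb, had an interval of -0.14 to 0.47, and RPPH1, the RNA of ribonuclease P, one of -0.25 to 0.43. The leading transcripts of RN7SK and RPPH1 lie 100% in exons of another annotated gene on the same strand. All 5 intervals lie within 1 log2 unit of 0.

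EEF2, the elongation factor that moves the ribosome along the mRNA, had 18053, 21368 and 17669.8 TPM in ATG12-/- EVs, against 13972, 13628 and 16299 TPM in ATG7-/- EVs. Its leading transcript has 218 bases and held 95.3% of the gene's TPM, so these values are largely those of a short annotated transcript. Every ATG12-/- library was above every ATG7-/- library, but the difference of 0.35 ± 0.13 did not pass (adjusted p = 0.646). PKNOX2, a homeobox transcription factor, had 1963, 2366 and 2458 TPM in ATG12-/- EVs, against 999.5, 1134 and 1327 TPM in ATG7-/- EVs (0.95 ± 0.18, adjusted p = 0.20). Its cells lay in the same order, with 474, 452 and 363 TPM in ATG12-/- and 301, 203 and 234 TPM in ATG7-/- (0.78 ± 0.21, adjusted p = 0.321).

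Several abundant features opposite known mRNAs had lower values in ATG12-/- EVs without passing the test. AL138963.3 lies fully opposite TPT1, the gene of translationally controlled tumour protein, and had 5343, 5342 and 5956 TPM in ATG12-/- EVs, against 9114, 8425 and 9510.1 TPM in ATG7-/- EVs (-0.73 ± 0.11, 95% interval -0.98 to -0.48, adjusted p = 0.19). TPT1 itself had 142, 164 and 158 TPM in ATG12-/- EVs and 264, 231 and 292 TPM in ATG7-/- EVs (-0.78 ± 0.24, adjusted p = 0.462). Neither pair of groups overlapped, and the cell difference of AL138963.3 was -0.66 (adjusted p = 0.237).

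AL136131.3, fully opposite the growth factor gene VEGFA, had 1183, 1146 and 1357 TPM in ATG12-/- EVs, against 4551, 2402 and 5405 TPM in ATG7-/- EVs (-1.70 ± 0.29, adjusted p = 0.194), and its cell difference was -0.87 (adjusted p = 0.245). VEGFA was low and scattered, with 46.3, 4.34 and 19.7 TPM in ATG12-/- EVs and 19.3, 2.36 and 1.41 TPM in ATG7-/- EVs. AL583722.2, fully opposite the kinase gene AKT1, had 123, 133 and 100.5 TPM in ATG12-/- EVs, against 284, 269.5 and 275 TPM in ATG7-/- EVs (-1.25 ± 0.26, adjusted p = 0.215). RSPH14, 84.8% opposite the G protein gene GNAZ, had a difference of -1.93 ± 0.33 (adjusted p = 0.194). In each of these the ATG12-/- group lay wholly below the ATG7-/- group in EVs, and also in cells.

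Among protein-coding genes that did not pass, SLC38A10, an amino acid transporter gene, had 292, 321 and 298 TPM in ATG12-/- EVs, against 119, 95.3 and 89.5 TPM in ATG7-/- EVs (1.56 ± 0.25, adjusted p = 0.192). Its cell libraries overlapped, with 14.5, 14.6 and 15.6 TPM in ATG12-/- and 12.6, 17.4 and 7.13 TPM in ATG7-/-. KRTCAP2, a subunit of oligosaccharyltransferase, had 527, 784 and 991 TPM in ATG12-/- EVs and 399, 206 and 211 TPM in ATG7-/- EVs (1.49 ± 0.33, adjusted p = 0.263). TRIM28, a transcriptional corepressor, had 297, 270.4 and 237 TPM in ATG12-/- EVs and 130.3, 109.8 and 130.1 TPM in ATG7-/- EVs (1.08 ± 0.26, adjusted p = 0.291). RNF166, a ubiquitin ligase, had 38.6, 75.4 and 58.9 TPM in ATG12-/- EVs and 1.54, 1.46 and 2.57 TPM in ATG7-/- EVs (4.30 ± 0.54, adjusted p = 0.116), with overlap in cells, and its leading transcript lies 45.7% opposite AC138028.3. Leading transcripts had 271 bases and 98.0% of the gene's TPM for KRTCAP2, 338 and 56.8% for TRIM28, and 313 and 64.7% for RNF166. Values of these genes are thus largely those of short annotated transcripts. That of KRTCAP2 also lies 81.9% in exons of another gene on the same strand. For SLC38A10 it had 1988 bases and 47.4%.

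On the lower side, LIPT2, an enzyme of lipoic acid attachment, had 1.41, 0 and 5.66 TPM in ATG12-/- EVs and 319, 131 and 281 TPM in ATG7-/- EVs (-6.53 ± 0.76, adjusted p = 0.0962), and its leading transcript lies 83.0% opposite AP001372.2. AVIL, an actin-binding protein gene, had 3.61, 0 and 1.06 TPM in ATG12-/- EVs and 148, 120.0 and 73.2 TPM in ATG7-/- EVs (-5.72 ± 0.69, adjusted p = 0.114). The leading transcript of LIPT2 had 218 bases and 97.5% of its TPM, and that of AVIL 226 bases and 94.7%. SSB encodes the La protein, which binds the ends of RNA polymerase III transcripts, Y RNAs among them. It had 0, 1.25 and 0 TPM in ATG12-/- EVs, against 24.2, 33.4 and 24.1 TPM in ATG7-/- EVs (-4.43 ± 0.66, adjusted p = 0.19). For AVIL and SSB the difference in EVs was itself different from that in cells (-5.40, adjusted p = 0.0234, and -4.57, adjusted p = 0.00763), where the groups overlapped for both genes. SSB had 14.6, 16.7 and 11.3 TPM in ATG12-/- cells and 10.8, 12.5 and 10.3 TPM in ATG7-/- cells. The leading transcript of SSB lies 67.3% opposite METTL5.

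The antisense gene HOXB-AS4 had 184, 18.4 and 37.1 TPM in ATG12-/- EVs, against 0.463, 0 and 0 TPM in ATG7-/- EVs (5.50 ± 0.92, adjusted p = 0.194). In cells it was called, with 320.2, 206 and 241 TPM in ATG12-/- and 2.27, 2.96 and 7.06 TPM in ATG7-/- (5.72 ± 0.39, adjusted p = 0.00689).

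**Figure D3:**
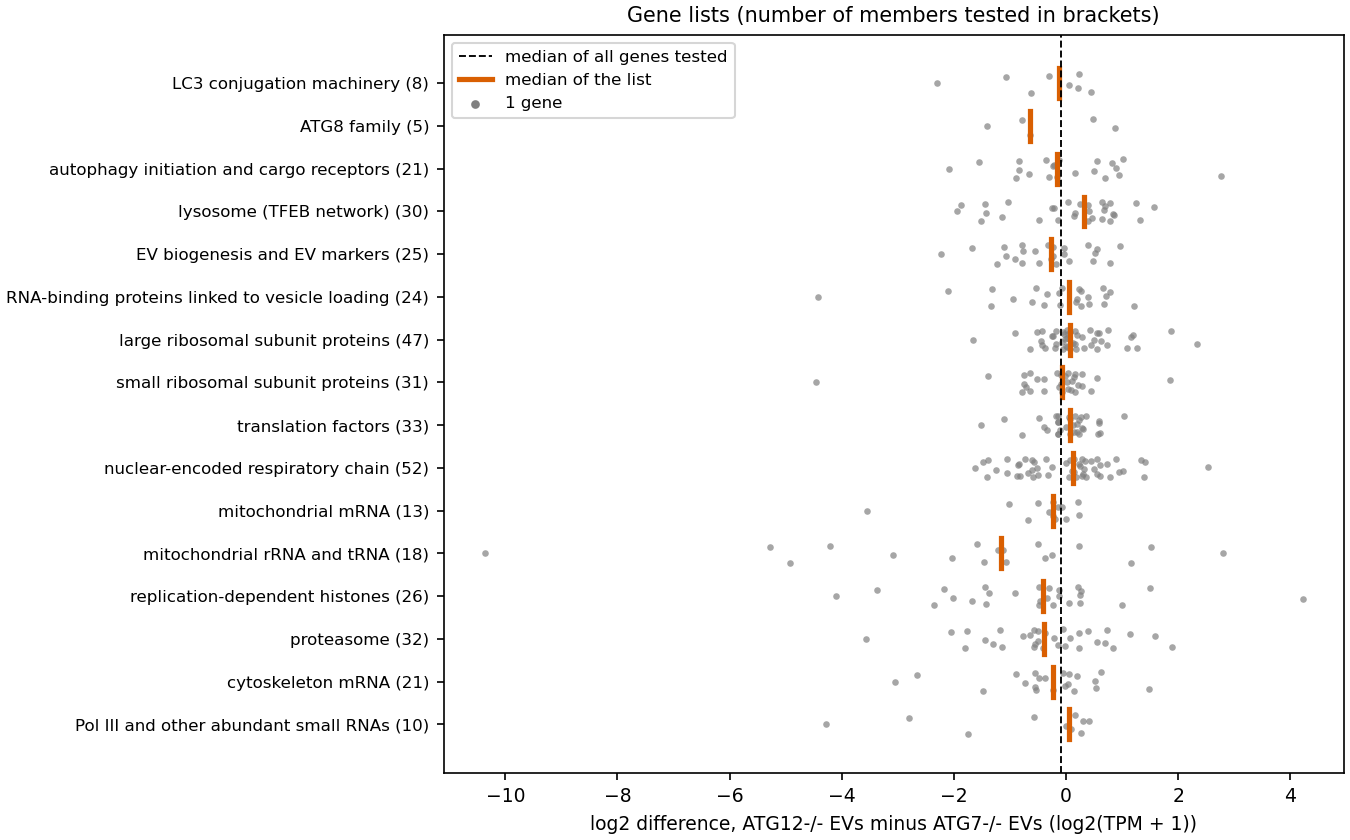
Log2 difference, ATG12-/- minus ATG7-/- EVs, of each tested member (points) and the median (orange bar) of 16 gene lists, with the median of all genes tested (dashed, -0.09). The mitochondrial rRNA and tRNA list has the lowest median (-1.17) and MT-TA at -10.37; no other gene in these lists was called.

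The conjugation machinery lost in these cells was measured beside its partners. Of 11 genes of LC3 conjugation, 8 were tested, 4 lay above 0 and 4 below, none was called and 1 had an unadjusted p under 0.05 (median -0.13, against -0.09 over all genes tested). ATG10, the enzyme that hands ATG12 to ATG5, had 2677, 2701 and 2821 TPM in ATG12-/- EVs, against 2305, 2259.5 and 2253 TPM in ATG7-/- EVs, without overlap (0.24 ± 0.13, adjusted p = 0.808). Its leading transcript lies 41.4% opposite the ribosomal protein gene RPS23. ATG16L1, the scaffold of the ATG12-ATG5 complex, had 0, 2.55 and 0 TPM in ATG12-/- EVs and 12.3, 4.49 and 4.64 TPM in ATG7-/- EVs (-2.29 ± 0.77, adjusted p = 0.527). Of 7 genes of the ATG8 family, the LC3 and GABARAP proteins, 5 were tested, with 2 above 0, 3 below, none called and none with an unadjusted p under 0.05 (median -0.64). GABARAP was the highest, with 134, 92.0 and 131 TPM in ATG12-/- EVs and 69.9, 94.0 and 83.9 TPM in ATG7-/- EVs. Its leading transcript lies 86.3% in exons of another gene on the same strand.

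No list had a called member apart from MT-TA, against 0.0346% called over all genes, so lists are given by their direction. Of 30 tested lysosomal genes, 19 lay above 0 and 11 below (median 0.32), with 1 at an unadjusted p under 0.05. That one was GAA, the lysosomal glucosidase, with 14.0, 18.6 and 11.8 TPM in ATG12-/- EVs and 5.63, 4.56 and 2.69 TPM in ATG7-/- EVs (1.57 ± 0.58, adjusted p = 0.616). LAMP2, a protein of the lysosomal membrane, lay on the other side with 3.29, 3.30 and 2.64 TPM in ATG12-/- EVs and 6.16, 10.6 and 16.8 TPM in ATG7-/- EVs (-1.51 ± 0.65, adjusted p = 0.714). Of 25 genes of EV formation and EV markers such as CD63 and TSG101, 7 lay above and 18 below (median -0.27), with 0 at that p. Of 24 RNA-binding proteins linked to vesicle loading, 12 lay on each side (median 0.05) and 3 were under that p, among them SSB and SAFB, a scaffold attachment factor with 0.341, 0.519 and 0 TPM in ATG12-/- EVs and 3.21, 6.20 and 4.28 TPM in ATG7-/- EVs (-2.11 ± 0.53, adjusted p = 0.328). Of 32 proteasome genes, 11 lay above and 21 below (median -0.39), and 0 were under that p. Of 21 cytoskeletal genes, 8 lay above and 13 below (median -0.23), 3 of them under that p. VIM-AS1, 69.8% opposite the intermediate filament gene VIM, had 1179, 1247 and 1254 TPM in ATG12-/- EVs and 911, 759 and 748 TPM in ATG7-/- EVs (0.58 ± 0.16, adjusted p = 0.389), and its cells lay in the same order without overlap (0.77 ± 0.20, adjusted p = 0.313).

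Of 26 tested histone genes, 8 lay above 0 and 18 below (median -0.40), and 6 had an unadjusted p under 0.05. Over all genes tested 6.97% had such a p. In cells the list lay the other way, with 15 above 0 and 9 below (median 0.27). HIST1H2BD was listed at 0 in all 3 ATG12-/- EV libraries, against 16.3, 10.4 and 24.3 TPM in ATG7-/- EVs, while HIST2H2AC had 66.5, 45.6 and 47.0 TPM in ATG12-/- EVs and 0, 0 and 20.9 TPM in ATG7-/- EVs. Neither was called (adjusted p = 0.19 and 0.428), and they lay on opposite sides. HIST1H2BD passed the filter through ATG7-/- EVs alone. Large ribosomal subunit genes, 47 tested, lay 28 above and 19 below (median 0.07, 5 under an unadjusted p of 0.05), and small subunit genes, 31 tested, lay 14 above and 17 below (median -0.06, 3 under it). RPLP1, a protein of the ribosomal stalk, had 4777, 7326 and 4798 TPM in ATG12-/- EVs and 3711, 3125 and 1438 TPM in ATG7-/- EVs (1.08 ± 0.36, adjusted p = 0.524). Its leading transcript has 256 bases and held 99.2% of the gene's TPM. RPS14 had 1028, 1187 and 978 TPM in ATG12-/- EVs and 727, 764 and 646 TPM in ATG7-/- EVs (0.55 ± 0.18, adjusted p = 0.532). In cells 40 of 47 large and 23 of 31 small subunit genes lay above 0, with medians of 0.50 and 0.46. Of 52 tested nuclear-encoded genes of the respiratory chain, 30 lay above 0 and 22 below in EVs (median 0.12, 3 under an unadjusted p of 0.05), and of 33 translation factors 19 lay above and 14 below (median 0.07, 3 under it). Of 21 tested genes of autophagy initiation and cargo receptors, 9 lay above and 12 below (median -0.16, 1 under it).

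Mitochondrially encoded RNAs were on the lower side in ATG12-/- EVs. Of 24 rRNA and tRNA genes, 18 were tested, 4 lay above 0 and 14 below, and 1, MT-TA, was called (median -1.17). Members that pass the filter through one group alone had to differ, so this median is a description. MT-TR, the arginine tRNA and the most abundant of them, had 4821, 8920.1 and 9846 TPM in ATG12-/- EVs, against 15521, 20784 and 11686 TPM in ATG7-/- EVs (-1.08 ± 0.30, adjusted p = 0.394). MT-TH, the histidine tRNA, had 947, 604 and 761 TPM in ATG12-/- EVs, against 1252, 2653 and 1276 TPM in ATG7-/- EVs (-1.12 ± 0.35, adjusted p = 0.469). MT-RNR2, the large mitochondrial rRNA, had 3293, 3372 and 3338 TPM in ATG12-/- EVs, against 3929, 4174 and 3649 TPM in ATG7-/- EVs (-0.26 ± 0.13, adjusted p = 0.784). The groups did not overlap in 4 of the 18, MT-TA and these 3, beside 12.8% of all genes tested and 17.2% of those averaging 100 TPM or more. Of the 13 mitochondrial mRNAs, all tested, 2 lay above and 11 below (median -0.23), none was called and 0 had an unadjusted p under 0.05.

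Summed over the class, mitochondrial tRNAs held 1.79%, 1.73% and 1.58% of the TPM in ATG12-/- EVs, against 2.93%, 3.66% and 2.58% in ATG7-/- EVs. MT-TR alone, which was not called, averaged 7862 TPM in ATG12-/- EVs and 15997 TPM in ATG7-/- EVs. The difference in this share thus rests in large part on 1 tRNA. Mitochondrial rRNAs held 0.331%, 0.338% and 0.334% in ATG12-/- EVs and 0.394%, 0.423% and 0.365% in ATG7-/- EVs. Mitochondrial mRNAs held 0.156%, 0.194% and 0.167% in ATG12-/- EVs and 0.211%, 0.259% and 0.232% in ATG7-/- EVs. Genes annotated as small nuclear RNA went the other way, with 1.97%, 2.13% and 2.09% in ATG12-/- EVs and 1.72%, 1.74% and 1.67% in ATG7-/- EVs. This class includes RN7SK, which averaged 10813 TPM in ATG12-/- EVs and 9463 TPM in ATG7-/- EVs, with overlap. Of 4 tested spliceosomal snRNA genes, 2 lay above 0 and 2 below. Their sums overlapped, at 393 to 1547 TPM in ATG12-/- EVs and 679 to 1058 TPM in ATG7-/- EVs. RNU2-1, the U2 RNA of the spliceosome, lay lower in ATG12-/- EVs, with 40.1, 114 and 78.3 TPM in ATG12-/- EVs and 295, 191 and 276 TPM in ATG7-/- EVs (-1.83 ± 0.42, adjusted p = 0.288). In each of these 4 classes the groups did not overlap, and in the other 10 they did. The exact two-sided permutation test gave p = 0.1 for each of the 4, the smallest that 3 against 3 can give, and 0.35 after adjustment over 14 classes. In cells the mean share of mitochondrial tRNAs was 11.3% in ATG12-/- and 12.6% in ATG7-/-, and that of mitochondrial mRNAs 1.78% in ATG12-/- and 1.89% in ATG7-/-. The other pair lay the opposite way to EVs, with 0.323% in ATG12-/- cells and 0.259% in ATG7-/- cells for mitochondrial rRNAs, and 2.22% in ATG12-/- cells and 2.42% in ATG7-/- cells for snRNA. In bulk libraries, fewer vesicles with mitochondrial RNA and less such RNA per vesicle cannot be told apart.

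**Figure D4:**
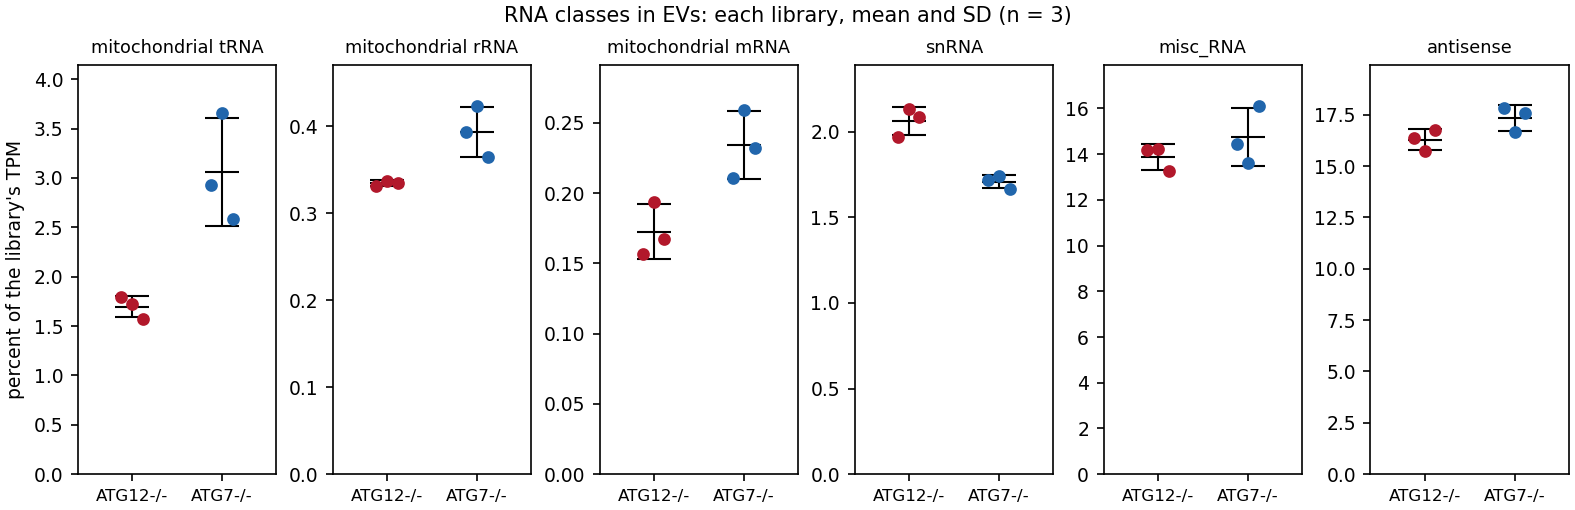
Percent of a library's TPM held by 6 RNA classes in ATG12-/- and ATG7-/- EVs (points are libraries; bars are the mean and SD, n = 3; each panel has its own axis from 0). The 3 mitochondrial classes are lower and snRNA is higher in every ATG12-/- library, while misc_RNA and antisense overlap.

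Some genes were measured in one knockout's EVs and listed at 0 in the other's. With at least 1 TPM in all 3 libraries of one group and 0 in all 3 of the other, 29 genes (0.2%) were present in ATG12-/- EVs alone and 133 (0.919%) in ATG7-/- EVs alone. Of the 29, 11 had at least 1 TPM in all 3 ATG7-/- cell libraries, and of the 133, 66 had at least 1 TPM in all 3 ATG12-/- cell libraries. None of them had the same pattern in cells. ATG7-/- EVs also had more genes at 1 TPM or more, as given above, and the part of that number in this imbalance was not tested, since TPM keep no depth. Zeros beside high values also occurred within groups: 175 genes (1.21%) had a 0 and at least 100 TPM in libraries of ATG12-/- EVs, and 103 (0.712%) in libraries of ATG7-/- EVs.

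The differences in EVs were set beside those in the cells that released them. In cells 47 of 19877 genes were called (0.236%), 27 (0.136%) higher and 20 (0.101%) lower in ATG12-/- cells, and 2052 (10.3%) had an unadjusted p under 0.05. Most of the 47 were listed at 0 in all 3 libraries of one cell group, SNORA20 among them. As in EVs, such zeros lower the estimated spread, so this count is a description. The cell groups did not overlap in 17.8% of genes, 9.76% with higher and 8.05% with lower values in ATG12-/- cells. Leaving out any one library of the cells gave 22 to 44 calls, the fewest without ATG12-/- replicate 3. Of the 5 genes called in EVs, AF106564.1 was also called in cells. Over 13468 genes tested in both sources the Pearson correlation of the 2 differences was 0.102, and 53.6% had the same sign. Over the 847 that averaged 100 TPM or more in EVs it was 0.150 with 60.8% of the same sign, and over the 102 from 1000 TPM upwards it was 0.382 with 67.6%. These are descriptions across genes of 12 libraries, in which low genes carry more noise.

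**Figure D5:**
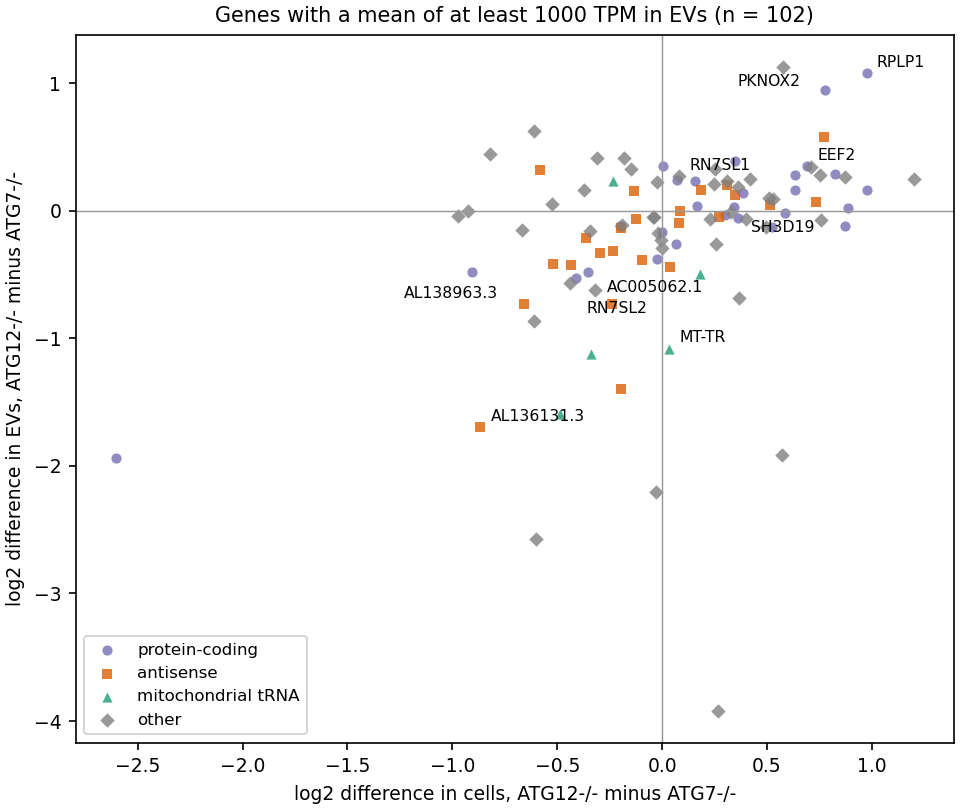
Log2 difference in cells (horizontal) against that in EVs (vertical), both ATG12-/- minus ATG7-/-, for the 102 genes that averaged 1000 TPM or more in EVs and were tested in both, by gene type. Of these, 67.6% have the same sign; PKNOX2 and RPLP1 are high in both and AL136131.3 is low in both, while MT-TR is low in EVs and near 0 in cells.

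Of 11 mRNAs known to localise to cell protrusions, 5 lay above 0 and 6 below in EVs (median -0.18), none was called and 3 had an unadjusted p under 0.05. One of these was RAB13, a small GTPase, which had 621, 681 and 646 TPM in ATG12-/- EVs, against 487, 449 and 457 TPM in ATG7-/- EVs (0.45 ± 0.18, adjusted p = 0.679). Its leading transcript lies 76.0% in exons of another gene on the same strand. In cells RAB13 was low and lay the other way, with 3.59, 4.29 and 6.63 TPM in ATG12-/- and 7.91, 8.16 and 14.5 TPM in ATG7-/- (-0.96 ± 0.34, adjusted p = 0.424), and the difference between the 2 contrasts did not pass (1.48, adjusted p = 0.359). DDR2, a collagen receptor of the same group, had 12.9, 17.3 and 20.7 TPM in ATG12-/- EVs and 39.4, 40.1 and 28.3 TPM in ATG7-/- EVs (-1.07 ± 0.43, adjusted p = 0.679). Its cells were lower in ATG12-/- too, with 6.92, 6.39 and 6.07 TPM against 17.2, 17.6 and 18.4 TPM in ATG7-/- (-1.36 ± 0.21, adjusted p = 0.115).

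A direct test of whether the difference in EVs was itself different from that in cells called 45 of 22130 genes (0.203%), 13 (0.0587%) with a higher and 32 (0.145%) with a lower difference in EVs than in cells, and 6.81% had an unadjusted p under 0.05. Of these, 3 were called in EVs and 23 in cells, and 27 were listed at 0 in all 6 EV libraries, so that for them the test reads the cells alone. The count was 69 without replicate 2 of ATG7-/- EVs and also without replicate 1 of ATG7-/- cells. MT-TA (-9.35, adjusted p = 4.86e-05), RF02120 (-8.82, adjusted p = 0.000139) and the RF00017 gene (7.23, adjusted p = 0.001) were the genes called both in EVs and here. CNTNAP3B, a gene of the neurexin family, had 0.457, 0 and 0 TPM in ATG12-/- EVs, against 66.7, 53.7 and 21.8 TPM in ATG7-/- EVs, while its cells overlapped (-5.13, adjusted p = 0.00411). AF106564.1, by contrast, differed in the same direction in both sources.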

How the data were processed

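Total RNA of EVs and cells was sequenced as single-end 50-base reads from stranded total RNA libraries, per the labels' protocols. The titles of all libraries name them as large RNA. The authors deposited TPM per Ensembl transcript in 1 table of 18 libraries, and per the submitters' processing notes Salmon 0.14 and DESeq2 were used. The sources used here do not state the genome build, annotation or strand setting. Of 203027 transcripts, 202941 matched GENCODE 29 (GRCh38) by ID without version, and the 86 others held at most 0.038% of a library. TPM were summed to 57865 genes.

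Genes reaching 1 TPM in 3 or more of the 6 libraries compared were scaled by the median of ratios and tested as log2(TPM + 1) with limma 3.58.1 (R 4.3.3, mean-variance trend, two-sided), with Benjamini-Hochberg adjustment over all genes tested and a threshold of 0.05. Differences on this scale understate the change of low genes. The 6 cell libraries were fitted likewise, and an interaction term over 12 libraries tested EV against cell differences. Scripts were tested on simulated data. TPM keep no depth, so no counting error could be given. Sequences are those of GENCODE 29 transcripts.

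Genes are named if called, among the smallest unadjusted p (10 in each direction over all genes without overlap and over those averaging 100 TPM or more, 3 in each gene list), among the 10 most abundant, or among the largest interactions. Not every gene that meets this is named. RN7SK, RPPH1, RNY3 with its family sums, MT-RNR2, MT-TG, and the genes opposite a named feature were picked once their values were known. The members and lists were chosen with earlier results of these data known. Alternatives in pseudocount, filter, scaling, features, model, block and libraries were run.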

Additional observations from a re-analysis of the deposited data

Results flagged for a closer look

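The difference between the knockouts was itself different in EVs and in cells for 45 genes by limma's interaction term, of which 39 were listed at 0 in all 3 libraries of at least 1 group. Values below are the EV difference minus the cell difference, each ATG12-/- minus ATG7-/- on the log2 scale.

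Among those with a value in an EV group, MT-TA was at -9.35, RF02120 at -8.82, AVIL at -5.40, CNTNAP3B at -5.13, AC012309.2 at -4.82, SSB at -4.57 and HIST1H2BD at -4.48, and the RF00017 gene ENSG00000277794 was at 7.23 and FLJ46906 at 5.31. AC012309.2, 48.3% opposite the zinc finger gene ZNF420, was listed at 0 in all 3 ATG12-/- EV libraries, against 46.0, 62.0 and 35.1 TPM in ATG7-/- EVs. FLJ46906 had 14.5, 13.6 and 51.3 TPM in ATG12-/- EVs and was listed at 0 in all 3 ATG7-/- EV libraries. SSB and CNTNAP3B had cell libraries that overlapped.

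The other 4 were listed at 0 in all 6 EV libraries, and their values come from the cells. A second gene named RF00019 (ENSG00000199332) was at -7.22, with 209.6, 119 and 120.5 TPM in ATG12-/- cells and 0 in all 3 ATG7-/- cell libraries. RNU7-18P, a U7 small nuclear RNA pseudogene, was at -7.62, with 167, 71.2 and 575 TPM in ATG12-/- cells and 0 in ATG7-/- cells. RF02142 was at -7.10, with 139.9, 87.3 and 191 TPM in ATG12-/- cells and 0 in ATG7-/- cells. SNORA20, a small nucleolar RNA, was at 6.68, with 0 in all 3 ATG12-/- cell libraries and 66.1, 86.2 and 137 TPM in ATG7-/- cells.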

How the results depend on the processing

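The EV count of 5 calls was 2 without transcripts under 200 bases, 1 without mitochondrially encoded and small noncoding RNA genes, 17 with the spread from 9 EV libraries (4 of the 5 among them), 0 with a replicate block and 4 to 11 leaving out each library in turn. The cell count of 47 was 31 with a pseudocount of 5, with no filter and with a mean of at least 10 TPM, 0 with the block and 22 to 44 leaving out libraries. The count of 45 for EV against cell differences was 106 with a pseudocount of 0.1, 29 with 5, 19 with a mean of at least 10 TPM, 28 without the mitochondrial and small RNA genes, 24 with the block and 38 to 69 leaving out libraries. Same-numbered libraries hardly deviated together (r of 0.00905 to 0.0161 for EV pairs, 0.00959 to 0.0435 for cell pairs), though in EVs each correlated best with its own number. Such small values over noisy genes cannot decide whether the numbers pair the libraries, and the labels do not say.

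Without transcripts under 200 bases the differences in share, in percentage points, were -0.0834 for mitochondrial rRNA, 0 for mitochondrial tRNA (all shorter), -0.346 for other long noncoding RNA, -0.265 for pseudogenes and 0.149 for snRNA. Of 1073 refits of 69 named genes, 1042 kept direction and side of the threshold. Of those that turned sign, which were at -0.37 to 0.09 with all libraries, FTX was 0.00403 unscaled and -0.0735 to 0.0387 leaving out libraries, MT-RNR1 -1.33 to 0.77, RPPH1 -0.0144 to 0.156 and SH3D19 -0.0195 to 0.0635. AF106564.1 kept its call in 14 of 16 settings that tested it, MT-TA and RF02120 in 13 of 14, the RF00019 copy in 11 of 14 and the RF00017 gene in 8 of 15. The cause of these changes was not tested. Without depth, an exact 0 and a low level cannot be told apart.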
